A study of Mus musculus with 26 samples.

Results

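Macrophages sorted from 5 small mouse mammary tumours were compared in their polysome-associated mRNA and their total mRNA. The 5 tumours are those of batch 1 that weighed under 1000 mg (T2, T3, T15, T16 and T19, 638.5 to 841.8 mg), so 10 of the 26 libraries and 5 of the 13 tumours of the series were used, 1 library of each RNA source per tumour. PyMT mammary tumour cells, a line driven by the polyoma middle T oncogene, had been placed in a mammary gland of female FVB mice of 5 to 7 weeks, with no further treatment and no genotype other than the strain named. Each tumour was sorted for cells with CD11b and F4/80 and without Ly6G in the presence of cycloheximide, which stalls ribosomes where they are. About 10% of the cells gave total mRNA, and from the rest the mRNA with at least 3 ribosomes was collected from a sucrose gradient. SmartSeq2, which copies polyadenylated RNA along its length without marking the strand, was used for both. For contrast, 3 small tumours of batch 2 (titled ER, 467 to 653 mg) and 2 large tumours of batch 1 (T4 and T22, 1504 and 1578.5 mg) were used, which share the host, the cells and the sort. All cells came from tumours, so no macrophage from healthy tissue stands beside them.

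An mRNA under active translation carries several ribosomes, and its share in the heavy part of a gradient depends on how often translation starts and on the length of its coding region. mRNAs of ribosomal proteins and elongation factors begin with a run of pyrimidines (a TOP tract) through which mTOR signalling sets their translation. The cap-binding protein eIF4E, its inhibitors (the 4E-BPs) and the MNK kinases that phosphorylate it control the entry of other mRNAs. Replication-dependent histone mRNAs are unusual in that they end in a stem-loop and not in a poly(A) tail.

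Total mRNA libraries held 18018519 to 24360756 counts over 11850 to 17990 genes and polysome libraries 7034173 to 10135223 counts over 10695 to 11339 genes. Lars2, the mitochondrial leucyl-tRNA synthetase, alone took 10.3 to 25.9% of polysome counts and 0.433 to 0.902% of total counts. Its transcript holds a stretch that resembles mitochondrial ribosomal RNA, so how many of these reads are its own is uncertain. The total mRNA library of T2 stood lowest in its correlation with its group (median r = 0.914 across genes, against 0.945 to 0.955 for the others). Macrophage genes were abundant in all 10 libraries. Csf1r, the receptor for the macrophage growth factor CSF1, had 1940.1 to 4208 CPM (read counts scaled to a common library size) in total mRNA, and Adgre1, which encodes F4/80, had 735 to 865 CPM. The 12 neutrophil markers summed to 71.6 to 210 CPM in total and 134 to 449 CPM in polysomes, mostly Csf3r, with Ly6g at 0 or 1 count. The 12 fibroblast markers summed to 205 to 2432 CPM in total and 185 to 963 CPM in polysomes, and were highest in T2, where Col3a1 reached 968 CPM. The 14 measured mammary epithelial and tumour cell markers summed to 55.4 to 414 CPM in total and 45.9 to 366 CPM in polysomes. T cell markers summed to at most 99.4 CPM, endothelial markers to 37.1 CPM, B cell markers to 35.7 CPM and NK cell markers to 20.9 CPM in any library. Cd3e, Ncr1 and Ms4a1 were at 0 in all 5 polysome libraries and reached 0.240, 0.289 and 0.453 CPM in total mRNA. Other members of the same lists were detected in polysomes, such as Cd4 (14.6 to 49.7 CPM), Cd79b (7.51 to 23.6 CPM) and Klrb1c (up to 3.60 CPM). Mast cell, adipocyte and erythroid markers summed to at most 7.19 CPM. Dendritic cell markers reached 158 CPM, mostly Siglech, and skeletal muscle markers 209 CPM, mostly Acta1 in the polysome library of T19. The part of these cells in the results was not tested, and in bulk samples fewer cells of a type and less RNA per cell cannot be told apart.

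The sequence elements named above were looked for in the annotated genes. The stem-loops of 6 histone mRNAs that rose on polysomes are shown with the loop and stem in capitals, 5′ to 3′ (GENCODE M21 transcripts on GRCm38, with the gene's position).
Hist1h4d (chr13:23581598-23582735): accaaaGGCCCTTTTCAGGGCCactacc
Hist1h4b (chr13:23757013-23757409): acaaaaGGTCCTTTTCAGGACCactcac
Hist1h4j (chr13:21735064-21735837): cctaaaGGTCCTTTTCAGGACCaccaca
Hist1h2ab (chr13:23751126-23751598): aacaaaGGCTCTTTTCAGAGCCacccac
Hist1h2ad (chr13:23574381-23574952): aacaaaGGCTCTTTTCAGAGCCatccac
Hist1h4h (chr13:23531050-23531519): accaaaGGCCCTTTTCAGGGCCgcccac
The histone stem-loop motif (16 bases), searched on the transcript's strand in the first 100 bases of the 3′ UTR, was found in 35 of 40 tested histone genes with such an annotation (87.5%) and in 2 of 9742 other tested genes (0.0205%). The 30 bases around the annotated start of 4 mRNAs of the translation machinery are shown because a TOP tract begins at the start in use. Their first 15 bases lie before the annotated start, outside the annotated mRNA. The longest run of pyrimidines, or the first of equal ones, is in capitals (RefSeq, GRCm38.p6, 15 bases on either side of the start).
Rps7 (chr12:28635939-28635968, minus strand): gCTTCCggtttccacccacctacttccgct
Rpl22l1 (chr3:28805493-28805522, plus strand): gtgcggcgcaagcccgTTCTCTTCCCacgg
Eef1b2 (chr1:63176816-63176845, plus strand): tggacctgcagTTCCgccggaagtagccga
Eef1a1 (chr9:78481710-78481739, minus strand): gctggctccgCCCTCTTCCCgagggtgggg
A run of 8 or more pyrimidines (C or T, on the transcript's strand) lay in this 30-base window in 22 of 55 ribosomal protein genes with an annotated start (40%), in 6 of 14 further TOP genes (42.9%) and in 952 of 7942 of all genes tested (12%). Genes with a run did not fall more in either list. The median log2 fold with and without a run was −1.54 and −2.23 for ribosomal proteins and −1.28 and −2.06 for further TOP genes. For all genes tested it was −0.281 and −0.276. Rps7 and Eef1b2, which fell more than Eef1a1, showed runs of 5 and 4 bases in this window, and both marked runs lie before the annotated start. Btf3 and Tpt1, also looked up but not printed, had longest runs of 4 and 4 bases. Annotated starts need not be the starts used in these cells.

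The question was which mRNAs had a larger or smaller share among polysome-bound than among all mRNA. Polysomes were higher in 2714 of the 10918 tested genes (24.9%) and lower in 3278 (30%; edgeR quasi-likelihood test with the tumour as block, adjusted p below 0.05). The median fold was −0.27 on the log2 scale. Folds were large: 1028 called genes were higher and 1631 lower by more than 2 on the log2 scale, and 305 and 707 by more than 3. In 2730 genes (25.0%) polysomes were higher in 5 of 5 tumours and in 3590 genes (32.9%) lower in 5 of 5, and the 5 polysome values lay apart from the 5 total values in 4403 genes (40.3%). Of 35 gene lists 33 had members in the tables, and their folds are plotted by list. With a trend on GC content and transcript length removed from each library, a choice made after the data had been seen, 19.8% of 9939 genes were higher and 26% lower. Values from that fit are given beside many, but not all, of the results that it turned or ended.

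**Figure D1:**
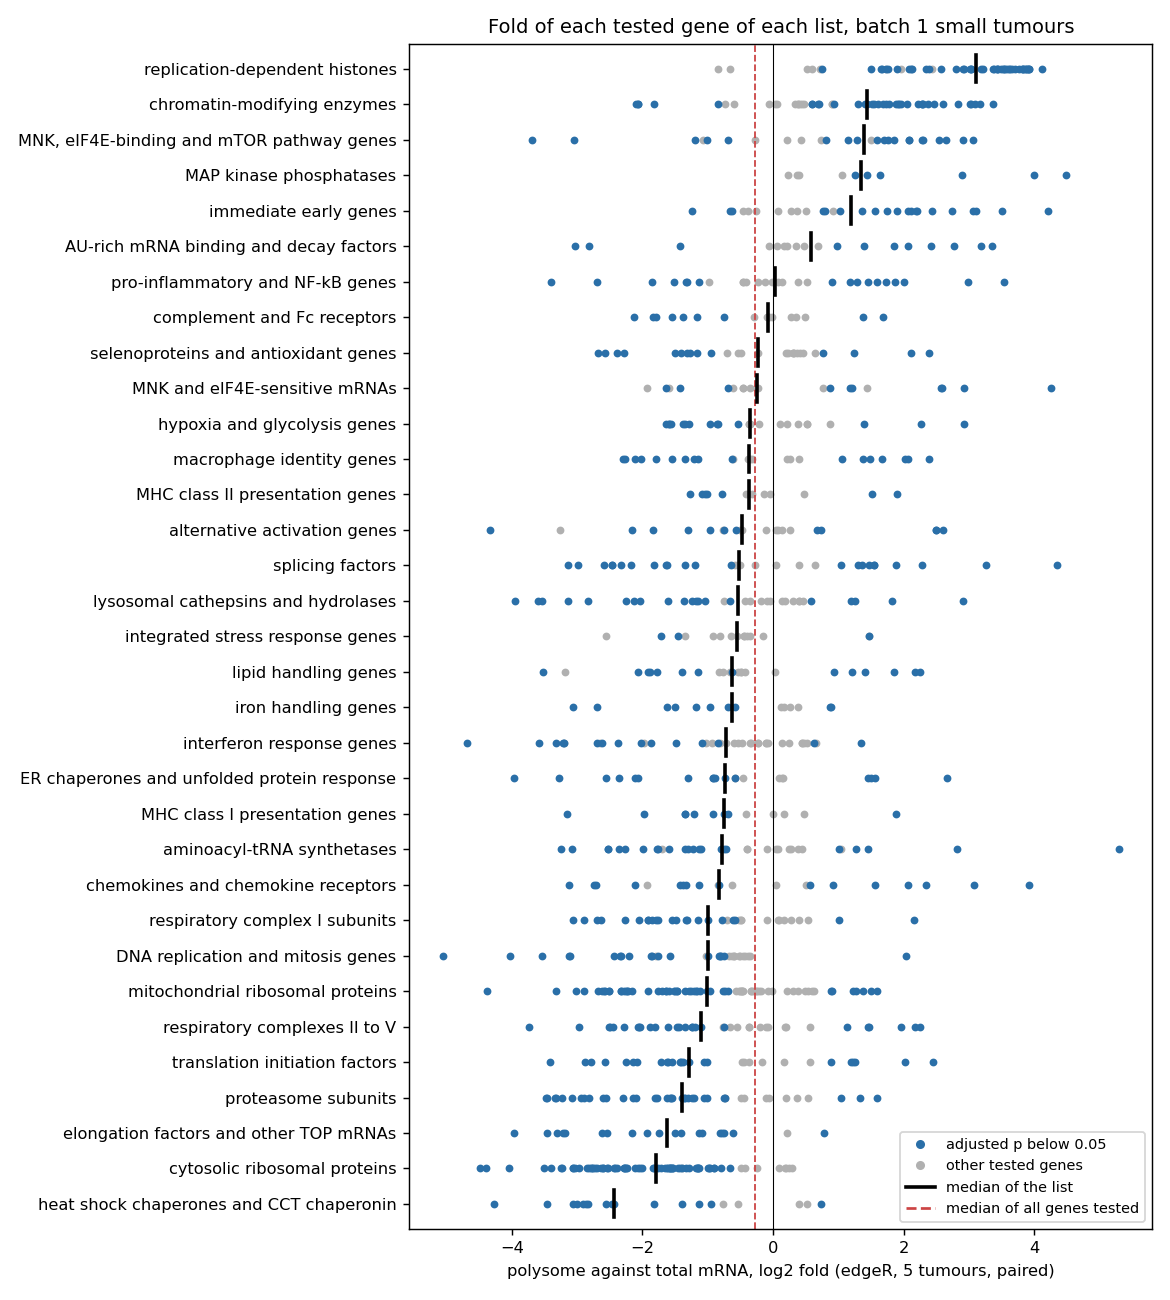
Log2 fold of polysome against total mRNA (x axis) of each tested gene of 33 lists (rows, ordered by median; 1 point a gene, blue where the adjusted p is below 0.05, grey otherwise; black bar, list median; dashed line, median of all genes tested, −0.27). Histones (median 3.11) stand at one end, and ribosomal proteins (−1.79) and heat shock chaperones with the CCT chaperonin (−2.43) at the other.

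The mRNAs that encode the translation machinery were low on polysomes. Of 74 cytosolic ribosomal proteins tested, 65 were lower and 0 higher, against 30% and 24.9% of all genes, and the list's median was −1.79 against −0.27. In 49 of them the polysome values lay below all total values. Over all genes tested the polysome and total values lay apart, in either direction, in 40.3%. The list took 3.23, 4.77, 4.19, 4.77 and 2.79% of total mRNA counts in T2, T3, T15, T16 and T19 (the order used for values per tumour throughout) and 1.33, 1.25, 0.693, 0.942 and 1.60% of polysome counts. The ranges did not overlap, and the share fell in each tumour (3.95 ± 0.91 to 1.16 ± 0.35%, SD, n = 5; exact two-sided sign-flip permutation test p = 0.0625, the smallest 5 pairs allow). T15 and T16 had the lowest polysome shares and T19 the highest.

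Rps7, a protein of the small subunit, had 388, 821, 732, 869 and 435 CPM in total mRNA and 28.9, 28.9, 17.3, 27 and 33.5 CPM in polysomes (chr12:28630854-28635953, GRCm38). The polysome values lay far below all total values, and T15 had the lowest. The fold of Rps7 was −4.48 ± 0.30 (SE, adjusted p = 3.54e-07). Rpl3, a protein of the large subunit, went from 658, 999, 894, 897 and 849 CPM to 100.0, 146, 122, 149 and 98.9 CPM, a log2 fold of −2.76 ± 0.20 (SE, adjusted p = 4.79e-07). The groups lay far apart, and T2 was lowest in total mRNA. Rpl7 (−3.40) and Rpl22l1 (−4.39), a paralog of Rpl22, fell by as much or more. The 9 ribosomal proteins that did not pass included Rps9, at 0.29 ± 0.20 (SE, adjusted p = 0.222), with 684, 1222, 1153, 995 and 823 CPM in total and 665, 1161, 1637, 1405 and 1036 CPM in polysomes. Ribosomal protein genes have many processed pseudogenes, which can take or give reads, so single values are uncertain. Without T2, 66 of 74 were lower and 0 higher, and with the GC and length trend removed 58 were lower and 4 higher.

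Elongation factors and further TOP mRNAs followed the same direction, with 18 of 20 lower and 1 higher (median −1.63; 13 and 1 of 20 with the GC and length trend removed). Eef1b2, an exchange factor of the elongation factor eEF1A, had 191, 308, 289.8, 286 and 183 CPM in total and 29.1, 14.9, 10, 13.3 and 13.6 CPM in polysomes. Its polysome level was highest in T2 and its groups were far apart, a log2 fold of −3.97 ± 0.32 (SE, adjusted p = 6.89e-07). Tpt1, a translationally controlled tumour protein, went from 459, 559.9, 617, 689 and 421 CPM to 96.9, 51.2, 42.9, 39.2 and 67.2 CPM, a log2 fold of −3.21 ± 0.29 (SE, adjusted p = 1.81e-06). The growth-related Npm1 (−3.19), the nascent chain factors Btf3 (−3.31) and Naca (−2.61) and the most abundant member Eef1a1 (−1.14) also fell. The fall of Eef1a1 was not seen with the GC and length trend removed (−0.01, adjusted p = 0.955). Eef2, which moves the ribosome along, did not pass (0.22, adjusted p = 0.38), and Pabpc1, the poly(A)-binding protein, was the 1 that rose (0.78, adjusted p = 0.0387). The call of Pabpc1 was lost, with 0 of 20 higher, without T2, T3, T16 or T19 in turn, while 15 to 18 were lower in the 5 fits that each left out 1 tumour.

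Initiation factors went both ways. Of 29 tested, 17 were lower and 6 higher (median −1.28). Eif2s1, the alpha subunit of eIF2 (−3.41 ± 0.32 SE, adjusted p = 1.92e-06), Eif3d (−2.79), Eif4h (−2.25) and the cap-binding Eif4e (−2.58 ± 0.33 SE, adjusted p = 2.4e-05) fell. Eif4e stood at 82.6, 111, 93.2, 172 and 155 CPM in total and 38.7, 15.8, 12.3, 14.2 and 24.3 CPM in polysomes, with T2 highest among polysome values. Eif4g1, the scaffold of the cap-binding complex, rose from 74.5, 48.4, 49.5, 52.1 and 53.3 CPM to 295, 237, 341, 414 and 207 CPM, a log2 fold of 2.45 ± 0.24 (SE, adjusted p = 2.45e-06), and its relative Eif4g3 rose by 2.03. Eif4a1, the helicase of that complex, fell by 1.05 but stood at −0.01 (adjusted p = 0.974) with the GC and length trend removed.

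Of 26 genes of MNK, eIF4E-binding and mTOR signalling, 15 were higher and 5 lower, against 24.9% and 30% of all genes (median 1.39; 11 and 7, median 0.61, with the GC and length trend removed). The inhibitor gene Eif4ebp2 had 34, 14.8, 20.2, 12.3 and 12.4 CPM in total and 189, 126, 162, 123 and 114 CPM in polysomes. T2 was highest in both, and the groups did not overlap, a log2 fold of 3.07 ± 0.24 (SE, adjusted p = 6.5e-07). Eif4ebp1 rose by less (1.15, adjusted p = 0.000407), with T19 highest in both RNA sources. Tsc1, which restrains mTOR complex 1 (2.91), and the kinase Akt2 (2.30) rose, and Rheb, which activates that complex, fell (−3.05). The 2 kinases of eIF4E differed: Mknk2 rose (2.28 ± 0.32 SE, adjusted p = 4.12e-05) and Mknk1 fell (−1.19 ± 0.26 SE, adjusted p = 0.00136). The Mknk2 call was lost with the GC and length trend removed (0.66, adjusted p = 0.0825). Of 20 mRNAs known as sensitive to eIF4E or MNK, 7 were higher and 3 lower (median −0.24). With the GC and length trend removed 6 were higher and 3 lower, and the median turned to 0.17. Among those that rose were Odc1, which makes polyamines (2.59), the kinase Pim1 (2.58) and Tgfb1, below.

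Protein folding and turnover genes were low on polysomes. Of 19 heat shock chaperones and subunits of the CCT chaperonin, which folds actin and tubulin, 14 were lower and 1 higher (median −2.43). Cct4, a CCT subunit, had 204, 273, 232, 360.2 and 309.5 CPM in total mRNA and 14.9, 15.5, 12.1, 13.3 and 11.8 CPM in polysomes (chr11:22990519-23003780, GRCm38). The polysome values lay within a narrow band and far below total in every tumour. The fold of Cct4 was −4.27 ± 0.25 (SE, adjusted p = 2.56e-07). Hspa8, the constitutive HSP70, went from 1730.0, 2046, 2150.5, 2792 and 3115 CPM to 179, 194, 164, 253 and 244 CPM, a log2 fold of −3.46 ± 0.21 (SE, adjusted p = 2.67e-07). Mitochondrial Hspa9 (−3.01) and Cct5 (−2.43) fell too, and the 1 that rose was the stress-induced Dnajb1 (0.74, adjusted p = 0.0104). Of 41 proteasome subunits 30 were lower and 3 higher (median −1.40), with Psmd14 (−3.47) and Psma1 (−3.34) among the former and the activator subunit Psme2 (1.04) among the latter. Of 21 endoplasmic reticulum chaperones and unfolded protein response genes 12 were lower and 4 higher (median −0.74). Dnajb11 (−3.97) and the main chaperone Hspa5 (−2.11) fell, Edem1, of the degradation pathway, rose (2.67), and P4hb did not pass (0.13, adjusted p = 0.588). Of 15 integrated stress response genes 2 were lower and 1 higher (median −0.55), but 5 were lower and 1 higher without T2, and 6 were lower and 0 higher (median −1.16) with the GC and length trend removed. Atf4, their transcription factor, fell by 1.71.

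Mitochondrial genes of nuclear origin were more often lower than higher on polysomes. In complex I 20 of 33 were lower and 2 higher (median −0.99), and in complexes II to V 20 of 37 and 6 (−1.10). Among mitochondrial ribosomal proteins 39 of 69 were lower and 7 higher (−1.0). In T19 the 3 medians were −0.37, 0.01 and −0.42, so complexes II to V were not lower as a list there. With the GC and length trend removed the medians were −0.53, −0.52 and −0.68, against −0.33 for all genes. Sdha, the flavoprotein of succinate dehydrogenase, had 198, 240.0, 283, 238 and 359 CPM in total mRNA and 18.8, 16, 21.6, 20.8 and 16.5 CPM in polysomes (chr13:74322254-74350280, GRCm38). No tumour stood apart in polysomes. The fold of Sdha was −3.74 ± 0.24 (SE, adjusted p = 2.93e-07). Cox4i1 and Cox6a1 of complex IV moved the other way, with 233, 305, 228, 271 and 369 CPM of Cox6a1 in total and 1002, 936, 906, 1349.6 and 2306 CPM in polysomes (2.18 ± 0.21 SE, adjusted p = 2.8e-06; Cox4i1 1.96). Among complex I subunits Ndufb5 fell (−2.90) and Ndufa6 rose (2.16). Of 34 aminoacyl-tRNA synthetases 18 were lower, such as Nars (−2.52), and 5 higher, such as Vars2 (2.82) and Lars2 (5.30 ± 0.30 SE, adjusted p = 2.56e-07), which had the largest rise of all named genes.

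Replication-dependent histones were the list with the highest median. Of 54 tested, 46 were higher and 0 lower (median 3.11; 39 and 0, median 2.02, with the GC and length trend removed; 45 and 0 without T2). Together they took 0.0774, 0.120, 0.0771, 0.167 and 0.0683% of total counts and 0.672, 0.772, 0.674, 0.784 and 0.906% of polysome counts. Every polysome share lay above every total share (exact two-sided sign-flip permutation test p = 0.0625, the smallest 5 pairs allow). Hist2h3b, an H3 gene, had 72.1, 76.8, 75.8, 179 and 57.3 CPM in total mRNA and 1027, 1478, 1400.2, 1505 and 915 CPM in polysomes (chr3:96268654-96269141, GRCm38). T16 had the highest level in both. The fold of Hist2h3b was 3.93 ± 0.25 (SE, adjusted p = 2.93e-07). Hist1h4d, whose stem-loop is printed above, rose by 4.11 ± 0.31 (SE, adjusted p = 5.61e-07). These genes have near-identical copies, so single values are uncertain, and their capture differs from that of polyadenylated mRNA, whose part in the result was not tested. Of 31 other DNA replication and mitosis genes 18 were lower and 1 higher (median −1.0). The helicase subunit Mcm6 (−3.10) and the clamp Pcna (−2.34) fell, Cdk2 rose (2.04) and Cdk4 did not pass (−0.43, adjusted p = 0.0953).

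Regulators of transcription and of mRNA decay were more often higher than lower on polysomes. Of 28 immediate early genes, the first to respond to a stimulus, 17 were higher and 3 lower (median 1.20; 13 and 4 with the GC and length trend removed; 1 lower without T15). Nr4a1, a nuclear receptor, had 122, 132, 187, 288 and 186 CPM in total and 592, 463, 790.2, 1542 and 855 CPM in polysomes. T16 was highest in both, and all polysome values exceeded all total values, a log2 fold of 2.21 ± 0.20 (SE, adjusted p = 1.55e-06). Jund (3.06), Fosl2 (3.11), Egr3 (4.21) and Cebpb (3.51), a myeloid factor, rose by more, and Jun (−0.66, adjusted p = 0.0343) and Btg2 (−1.24) fell. Of 10 MAP kinase phosphatases, which switch these signals off, 6 were higher and 0 lower, led by Dusp8 (4.48) and Dusp7 (4.0). Of 18 proteins that bind AU-rich mRNA or act in its decay 8 were higher and 3 lower. Zfp36 (tristetraprolin), which targets Tnf and other cytokine mRNAs for decay, had 360.0, 362, 458, 508 and 467 CPM in total mRNA and 3084, 2583, 2945, 5169.7 and 6073 CPM in polysomes (chr7:28376784-28380253, GRCm38). T16 and T19 had the highest polysome levels. The fold of Zfp36 was 3.18 ± 0.23 (SE, adjusted p = 4.58e-07). Its paralog Zfp36l1 rose by 3.36, and Cnot2, a subunit of the deadenylase, fell (−2.81).

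Of 51 chromatin-modifying enzymes 32 were higher and 5 lower (median 1.45). Leaving out T3 or T15 gave 3 lower. With the GC and length trend removed the excess of higher genes was lost, at 11 higher and 15 lower (median −0.22). All genes in that fit stood at 19.8% higher and 26% lower (median −0.33). Kmt2d, an H3K4 methyltransferase, was at 3.17, and at 0.53 (adjusted p = 0.0713) with the trend removed. Splicing factors were split at 10 higher and 13 lower of 30 (median −0.52, and 0.04 with the trend removed). Hnrnpl, an RNA-binding splicing regulator, had 34.2, 29, 31.7, 28.2 and 22 CPM in total mRNA and 498, 530.3, 641, 777 and 448 CPM in polysomes (chr7:28808541-28822266, GRCm38). Every polysome value lay far above every total value, and T16 was highest in polysomes. The fold of Hnrnpl was 4.35 ± 0.23 (SE, adjusted p = 2.56e-07). Tra2b rose too (3.26), and Hnrnpf (−3.13) and Hnrnpk (−2.99) fell.

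**Figure D2:**
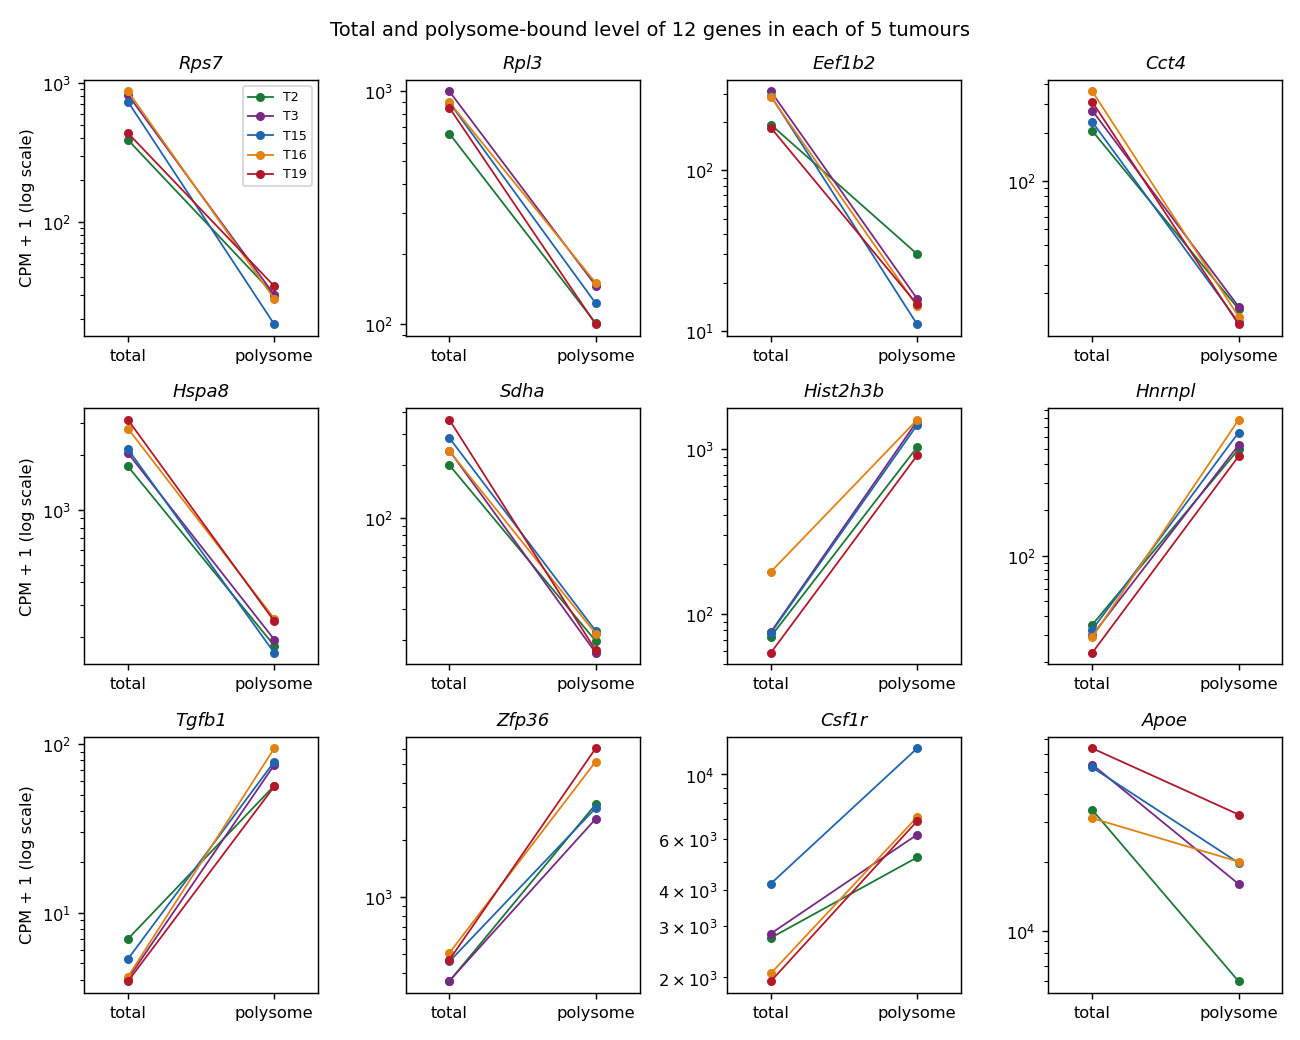
Total and polysome level of 12 genes (y axis, CPM + 1 on a log scale; 1 line a tumour). Rps7, Rpl3, Eef1b2, Cct4, Hspa8 and Sdha fall in each tumour, Hist2h3b, Hnrnpl, Tgfb1, Zfp36 and Csf1r rise in each, and Apoe falls by a different amount in each tumour.

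Genes of macrophage function moved in both directions. Of 24 macrophage identity genes 7 were higher and 10 lower (median −0.37), and of 18 complement and Fc receptor genes 2 and 7 (median −0.08). Of all genes 24.9% were higher and 30% lower (median −0.27). Csf1r had 2738, 2832, 4208, 2064 and 1940.1 CPM in total and 5181, 6205, 12301, 7135 and 6909 CPM in polysomes. T15 was highest in both, and the groups lay apart, a log2 fold of 1.49 ± 0.22 (SE, adjusted p = 7.42e-05), although with the GC and length trend removed the fold was 0.23 (adjusted p = 0.323). The integrin gene Itgam, which encodes CD11b, rose (1.38), and Adgre1 (−1.15; −0.67, adjusted p = 0.0783, with the trend removed), Lyz2, a lysozyme (−2.30), and the lipopolysaccharide co-receptor Cd14 (−2.02) fell. The subunits of C1q differed: C1qa fell (−1.17 ± 0.22 SE, adjusted p = 0.000501) and C1qc rose (1.69 ± 0.38 SE, adjusted p = 0.00185), with T2 the 1 tumour in which C1qc was lower in polysomes (2570 against 3216 CPM).

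Cytokine and chemokine mRNAs went both ways. Ccl6, a chemokine of myeloid cells, had 175, 274, 336, 388 and 509 CPM in total mRNA and 2174, 4584, 3914, 4258 and 13028 CPM in polysomes (chr11:83587882-83593087, GRCm38). T19 had the highest level in both. The fold of Ccl6 was 3.92 ± 0.25 (SE, adjusted p = 2.93e-07). The chemokine Ccl9 (−2.71) and the receptors Ccr1 (−2.74) and Ccr2 (−3.12 ± 0.25 SE, adjusted p = 7.91e-07) fell. Of 21 chemokines and receptors 7 were higher and 9 lower (median −0.82), which turned to 11 and 5 (median 0.64) with the GC and length trend removed. Of 28 pro-inflammatory and NF-kB genes 10 were higher and 7 lower (median 0.03). Over all genes tested 24.9% were higher and 30% lower (median −0.27). Tnf (1.74 ± 0.22 SE, adjusted p = 2.38e-05), Cd40, a co-stimulatory receptor (2.99), and Tnfaip2 (3.54) rose, and Cd86 (−3.40) and Tlr2 (−1.32) fell. Il1b stood at −0.12 (adjusted p = 0.634), but at 1.31 (adjusted p = 6.93e-05) with the trend removed.

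Tgfb1, a cytokine that restrains immune responses, was among the 12 largest rises. The gene had 5.99, 3.06, 4.32, 3.17 and 2.92 CPM in total mRNA and 55.5, 74.1, 77.5, 93.1 and 55 CPM in polysomes (chr7:25687002-25705077, GRCm38). T2 had the highest total level and T16 the highest polysome level. The fold of Tgfb1 was 4.26 ± 0.34 (SE, adjusted p = 6.52e-07). Of 21 alternative activation genes 5 were higher and 7 lower (median −0.47), near the shares of all genes (24.9% and 30%). With the GC and length trend removed 3 were higher and 6 lower (median 0.10), against 19.8% and 26% of all genes. Arginase 1, Arg1, had 13, 100.3, 140.3, 45 and 452 CPM in total and 2.69, 38.9, 50.9, 9.8 and 95.7 CPM in polysomes, so its level ranged more between tumours than between sources, and within each tumour it fell (−1.84 ± 0.24 SE, adjusted p = 2.94e-05). Retnla (2.50) and Socs2 (2.60) rose, Clec7a fell (−2.16; −0.22, adjusted p = 0.393, with the GC and length trend removed), and the mannose receptor Mrc1 did not pass (0.07, adjusted p = 0.799). Vegfa, with 0.109, 1.38, 0.411, 0.866 and 2.59 CPM in total and 4.17, 8.35, 3.6, 1.4 and 20.4 CPM in polysomes, rose by 2.92 ± 0.84 (SE, adjusted p = 0.00949), a call that was lost without T19 (2.89, adjusted p = 0.0519). Il10 and Cd274, which encodes PD-L1, did not pass (adjusted p = 0.151 and 0.529), although Il10, near 0 in both sources, did without T2 (−4.28, adjusted p = 0.0369), and Nos2 was not tested because its counts were too low.

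In antigen presentation, Cd74, the class II invariant chain, had 1191, 8792, 17440.1, 4839 and 541 CPM in total and 1685, 24340.5, 48944, 19148 and 1935 CPM in polysomes. T3, T15 and T16 were high and T2 and T19 low in both sources, so the groups overlapped, and within each tumour it rose (1.51 ± 0.25 SE, adjusted p = 0.000194). H2-Ab1, a class II chain, fell in each tumour (−0.78 ± 0.22 SE, adjusted p = 0.00831) and had the same tumours high and low. In class I presentation 8 of 13 genes were lower and 1 higher, and B2m fell by 1.98 but stood at 0.21 (adjusted p = 0.503) with the GC and length trend removed. Of 39 interferon response genes 13 were lower and 2 higher, against 30% and 24.9% of all genes (median −0.72). Among them were the guanylate-binding Gbp2 (−1.86) and Gbp3 (−2.61). With the GC and length trend removed 9 of the 39 were lower and 5 higher (median −0.31). All genes in that fit stood at 26% lower and 19.8% higher (median −0.33).

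Among metabolic and lysosomal genes falls were more frequent than rises, as they were over all genes tested (30% lower and 24.9% higher). Apoe, apolipoprotein E, fell from 34027, 53922, 52349, 31276 and 63595 CPM to 5977, 16049, 19888, 20132 and 32479 CPM (−1.40 ± 0.28 SE, adjusted p = 0.000848). T2 fell most and T16 least, and the highest polysome value lay above the lowest total value. Among 32 lysosomal genes 15 were lower and 5 higher (median −0.54; 9 higher without T2 and 8 with the GC and length trend removed). The ceramidase gene Asah1 fell (−3.95 ± 0.23 SE, adjusted p = 2.56e-07), as did the cathepsins Ctsl (−3.59) and Ctsh (−3.14), and Tpp1, a peptidase, rose (2.91 ± 0.26 SE, adjusted p = 1.53e-06). Grn, progranulin, rose from 2146 to 4169 CPM to 4936 to 27773 CPM (2.37), and Psap, prosaposin, did not pass (0.40, adjusted p = 0.216) except without T2 (0.63, adjusted p = 0.0138). The ferritin heavy chain Fth1, whose 5′ leader holds an iron-responsive element, went from 3039, 5719.5, 4592, 4197 and 6841 CPM to 403, 596, 434, 379.6 and 1219 CPM (−3.06 ± 0.23 SE, adjusted p = 5.22e-07), and the light chain Ftl1, with the same kind of element, by −0.69 (adjusted p = 0.0267), which did not pass without T3 (−0.57), T15 (−0.64) or T16 (−0.69). Tmsb4x, thymosin beta 4, fell from 6633 to 17206 CPM to 319 to 1216 CPM (−3.78). In hypoxia and glycolysis 11 of 26 genes were lower and 3 higher (1 higher without T19), Hif1a fell (−1.65) and Hk2, a hexokinase, rose (2.26). Of 23 lipid genes 6 were higher and 8 lower (1 and 8 with the trend removed), of 14 iron genes 2 and 8 (0 and 5 without T3), and of 27 selenoprotein and antioxidant genes 4 and 10 (6 and 4 of the 21 that had a transcript with the trend removed), with Gpx1 (2.39) high and Sephs2, which makes their selenium donor, low (−2.40).

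The other genes with the largest rises were Slc25a28, a mitochondrial iron carrier (4.86), Xylt1, which starts proteoglycan chains (4.84), and Trim56, an antiviral ubiquitin ligase (4.70). The potassium channel Kcna3 (4.61), the lysosomal nucleic acid transporter Sidt2 (4.47), the phosphatase regulator Ppp6r1 (4.39), the transcription factor Foxo4 (4.30) and the Wnt co-receptor Lrp5 (4.29) followed. The largest fall was that of Immp1l, of the mitochondrial inner membrane protease, from 16.4, 30.6, 29, 41.3 and 21.9 CPM to 0.0927, 0.491, 0.267, 0.7 and 0.459 CPM (−6.14 ± 0.51 SE, adjusted p = 8.53e-07). Its polysome values were near 0 in all 5 tumours. Nudt2 (−5.54), B4gat1, a glycosyltransferase (−5.36), the scavenger receptor Colec12 (−5.32), the inflammatory caspase Casp4 (−5.25) and Lyrm2 (−5.24) came next. Several of them had 0 counts in some polysome libraries, so the size of their fold depends on the prior count. Rnf138, Ggh, Aldh1b1, Nup35, Arhgap15 and Gpr171 completed the 12, with folds from −5.01 to −4.81.

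Across genes the fold was higher for mRNAs of higher GC content and greater length. In 5 groups of equal size of 9939 genes, ordered by GC content of the transcript, the median fold was −1.40, −0.70, −0.32, 0.14 and 0.76. In the lowest group (32.8 to 44.5% GC) 50.2% of genes were lower and 8.95% higher, and in the highest (55.8 to 72.9% GC) 8.90% and 43.3%. Spearman's rho across genes was 0.41 for transcript GC, 0.44 for coding GC, 0.26 for transcript length, 0.22 for coding length and 0.14 for 3′ UTR length. Genes share the 10 libraries and are not independent replicates, so no p is given. The order over GC groups held in each of the 5 tumours, and the span was narrowest in T2. Immp1l, with the largest fall, had 39.2% GC, and Tgfb1, among the largest rises, 62.5%. Lists did not all follow it: ribosomal proteins had a median GC content of 51.9% and short coding regions (median 465 bases), and AU-rich binding and decay factors, with 8 of 18 higher, had a median GC content of 43.8%. With the trend removed the medians were −1.48 for ribosomal proteins, −1.59 for heat shock chaperones and CCT, −0.86 for proteasome subunits and 2.02 for histones.

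**Figure D3:**
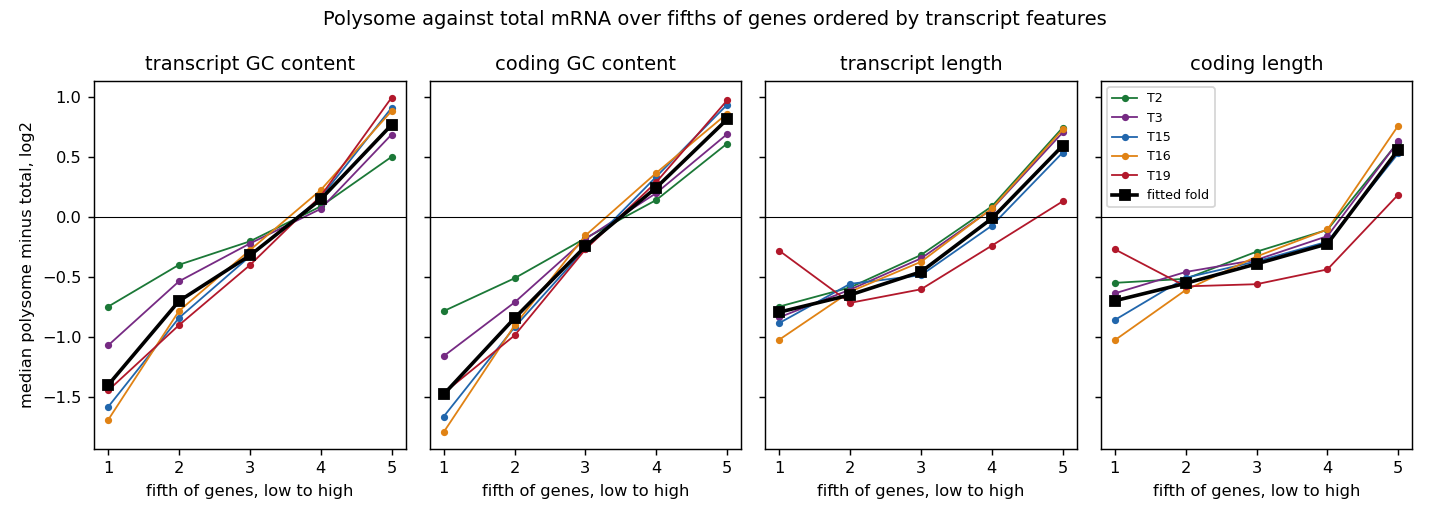
Median polysome minus total log2 level (y axis) over 5 equal groups of 9939 genes ordered by transcript GC content, coding GC content, transcript length and coding length (x axis, 1 panel each; coloured lines, the 5 tumours; black, the fitted fold). The fitted medians climb from −1.40 to 0.76 over GC content, and T19 departs from the others in the shortest genes.

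Tumours were alike in part. The polysome minus total differences of all genes correlated across genes between tumours at 0.51 to 0.78. T15 and T16 were most alike, and T2 (median 0.58 with the others) and T19 (0.62) least. The median gene had a range of 1.93 over the 5 tumours on the log2 scale, and the range was above 4 in 1993 of all 10918 genes tested and in 4 of the 1688 whose mean level reached 100 CPM. Sec61g, of the protein translocation channel, had 90.4, 192, 166, 273 and 137 CPM in total and 90.7, 66.3, 19.2, 11.4 and 217 CPM in polysomes. It was higher in polysomes in T19, nearly equal in T2 and lower in T3, T15 and T16, so its fold (−1.58 ± 0.63 SE, adjusted p = 0.0479) did not pass without T3, T15 or T16 (−1.63, −1.12 and −0.90). Rpl41, the shortest ribosomal protein, went from 467, 1156, 908, 1135 and 614 CPM to 371, 178, 88, 59.2 and 619.8 CPM, with the same tumours at either end, and S100a10, Wfdc17 and Rpl39 followed, with predicted genes left out. The medians of ribosomal proteins were −1.27, −2.01, −2.79, −2.41 and −0.87 in the 5 tumours, so T15 and T16 were lowest and T19 highest, while histones were at 3.44, 2.78, 3.12, 2.49 and 3.47.

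The 3 small tumours of batch 2 gave a different picture. Of 13395 genes tested in 1 fit of all 26 libraries, the polysome against total difference was higher in batch 1 small tumours in 722 (5.39%) and lower in 1038 (7.75%; median difference −0.47; edgeR interaction term, adjusted p below 0.05). These tumours differ from the batch 1 tumours in batch and in their title, which cannot be told apart. Without ER1 726 genes were called in all and without ER2 922, against 1760. Of 75 ribosomal proteins 70 were lower and 0 higher in batch 1, with a median difference of −3.39. Their per-tumour medians were −1.37, −2.04, −2.80, −2.37 and −0.71 in batch 1 small tumours and 2.41, 1.99 and 0.03 in ER1, ER2 and ER3, which do not overlap. Of 20 further TOP mRNAs 15 were lower and 0 higher (median −2.63). Proteasome subunits (10 of 41 lower, 1 higher), heat shock chaperones and CCT (8 of 19 lower, 0 higher), immediate early genes (9 of 28 higher, 1 lower) and histones (9 of 54 higher, 0 lower) differed in fewer members. With the GC and length trend removed 3.54% of 12316 genes were higher and 5.15% lower (8.69% in all), and 69 ribosomal proteins were lower and 0 higher. Spearman's rho of GC content with the difference was 0.20 to 0.36 across genes in the batch 1 small tumours and −0.08 to 0.12 in the ER tumours.

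With predicted and unnamed genes and those below a mean of 10 CPM left out, Rpl39 had the largest lower difference (−7.07 ± 1.45 SE, adjusted p = 0.008), followed by Rpl9 (−5.71), Uba6, an E1 enzyme (−5.69 ± 0.79 SE, adjusted p = 3.1e-05), Rpl3 (−5.51), Manea, a glycan-trimming mannosidase (−5.50), and Rpl22l1 (−5.45). The call of Rpl9 (adjusted p = 0.0238) was lost without T3 (−5.72), T15 (−5.34), T16 (−5.66), ER1 (−4.47) or ER2 (−4.84), and that of Rpl39 without ER2 (−6.27, adjusted p = 0.0623). Uba6 was lower on polysomes in each batch 1 small tumour (−3.19 to −1.89) and higher in each ER tumour (2.38 to 4.16). Tgfb1 had the largest higher difference (5.82 ± 0.89 SE, adjusted p = 0.000238), with 3.20 to 4.85 in batch 1 small tumours and −3.15 to −0.11 in ER tumours. Kcna3 (5.06), Leng8 (5.0), the splicing factor subunit Sf3a2 (4.84), and Mlxipl and Klhl17 (each 4.75) followed. Zfp36 (4.17 ± 0.49 SE, adjusted p = 4.07e-06) and Zfp36l1 (4.71 ± 0.53 SE, adjusted p = 3.25e-06) rose in the 5 tumours and lay below total in all 3 ER tumours. Spp1, osteopontin, did not pass in the 5 tumours (−0.45, adjusted p = 0.174), and its direction turned with the GC and length trend removed. Spp1 differed from the ER tumours by 2.70 (adjusted p = 0.000361). Arg1 (−3.12 ± 0.71 SE, adjusted p = 0.00427) and Eif4e (−1.76 ± 0.51 SE, adjusted p = 0.019) had a lower polysome against total difference in batch 1 small tumours. Lars2 and Hspa8 did not pass (adjusted p = 0.116 and 0.223).

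**Figure D4:**
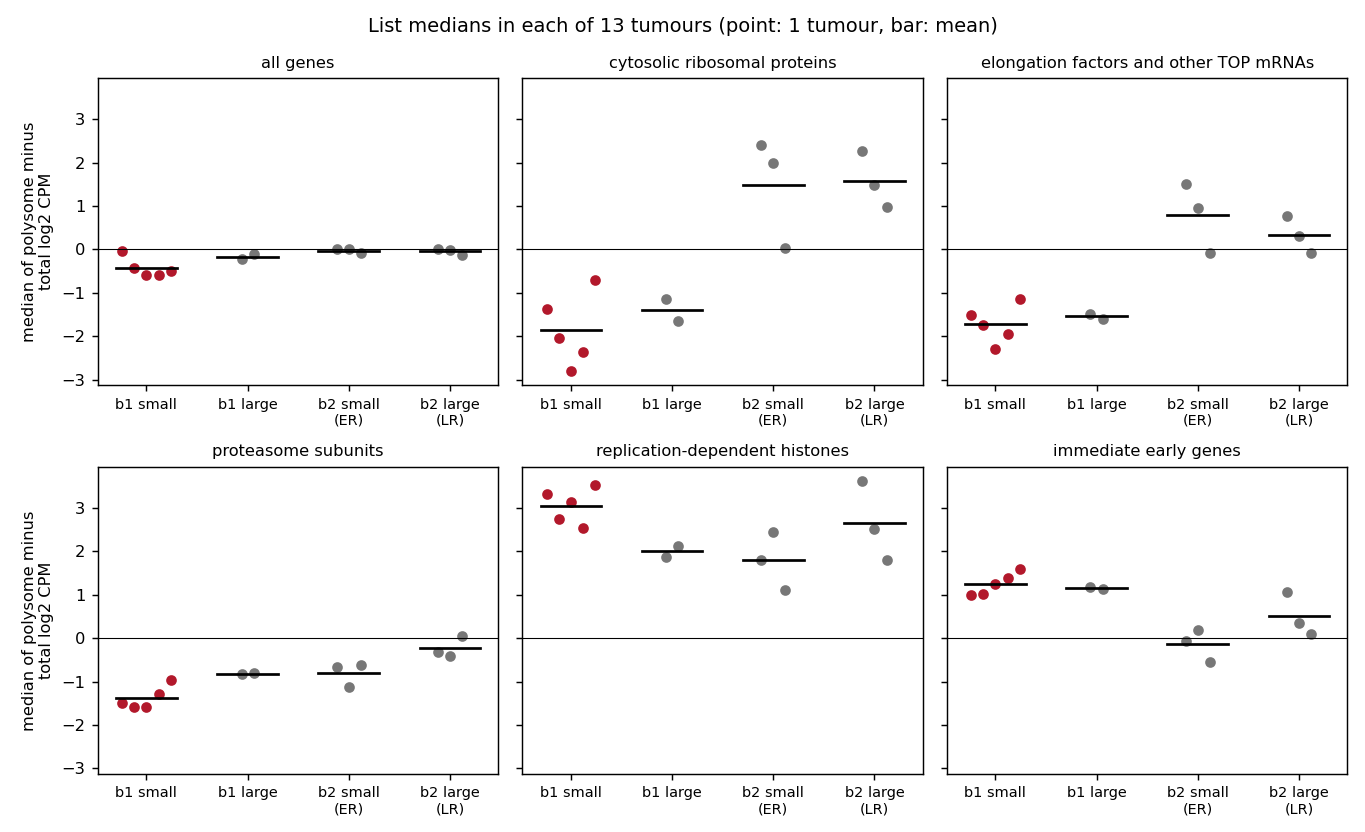
Median polysome minus total log2 CPM (y axis) of all genes and of 5 lists in each of 13 tumours (1 point a tumour; red, batch 1 small; grey, the other tumours; bar, mean; x axis, tumour group, with b1 and b2 for the batches). Ribosomal proteins and TOP mRNAs lie below 0 in all 7 batch 1 tumours, and the ribosomal protein medians lie above 0 in all 6 batch 2 tumours.

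The 2 large tumours of batch 1 showed no called difference from the 5 small ones in the same fit. In 0 of 13395 genes (0%) did the adjusted p pass (edgeR, lowest adjusted p = 0.442), while 390 had an unadjusted p below 0.05, 123 higher and 267 lower. limma voom called 0 and DESeq2 called 7. The 3 genes with the lowest p in each direction, at a mean of at least 10 CPM, were Ptgr1 (−3.59), Nqo2 (−3.38) and H2-M3 (−2.72; each adjusted p = 0.442), and Egr3 (3.60), Mme (2.41) and Rmnd1 (3.79; each adjusted p = 1). The ribosomal protein medians of T4 and T22 were −1.14 and −1.64, within the range of the 5 small tumours. With 2 large tumours, missing the threshold does not show that the groups were alike.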

How the data were processed

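The deposited files give counts of reads per gene for each library, made by the authors, beside a log2 column present for 10472 of 19549 gene rows, which differs from the log2 CPM of the same counts by 1 constant per library (to within 1.01e-13) and was not tested. The submitters' processing notes name HISAT, HISAT2, limma and mm10. Which counter, gene models and strand option were applied is not given in the sources used here. As 830 rows join overlapping genes and the library kit does not mark strand, overlapping and antisense genes cannot be told apart.

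Counts were tested with edgeR 4.0.16 in R 4.3.3 (TMM scaling, low counts filtered by filterByExpr, glmQLFit and glmQLFTest, tumour as block, Benjamini-Hochberg adjusted p below 0.05). Differences between tumour groups came from 1 fit of all libraries with an interaction term. Both libraries of a pair came from the same tumour, and deviations from group means correlated within tumours at 0.09 to 0.37, in 5 of 5 highest with their own. Tumours are separate mice only as far as the labels number them, so p-values measure the spread between these samples. CPM values are scaled by TMM library sizes, log2 differences use a prior count of 1, and shares of counts are unscaled. Tests were tried on simulated data first. limma 3.58.1 (voom) and DESeq2 1.42.0 were alternatives. In an alternative chosen after seeing the data, a spline (5 degrees of freedom) on GC content and length was removed from each library, for 9939 of 10918 genes with a GENCODE M21 transcript.

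Members and lists were chosen with earlier results of these data known. Named genes were the 12 largest folds in each direction (mean of at least 10 CPM, same sign in 5 of 5 tumours, no joined, predicted or pseudogene rows), from each list the 4 lowest-p members at most and its most abundant member, a fixed panel, the largest or lowest-p differences between tumour groups, the 10 most abundant genes of each source and the 5 widest ranges over tumours. Npm1, Naca, Eef2, Pabpc1, Dnajb1, Atf4, Jun, Btg2, Hist1h4d and other members outside this rule were chosen after their values were seen. Of 35 lists, 2 (nuclear noncoding RNAs and snoRNA hosts) had no members in the files. 2 named items are not reported here.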

Additional observations from a re-analysis of the deposited data

Results flagged for a closer look

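Of 78 groups of 5 tumour values examined, 4 held a value far from the others by Dixon's criterion (critical value 0.71), about the rate at which chance gives such values. Spp1 was lowest in T2, at −1.88 against −0.43 to 0.00 in the other tumours (polysome minus total log2 CPM). Lrp5 was also lowest in T2, at 2.41 against 4.43 to 4.77. Nup35 was highest in T15, at −1.33 against −6.13 to −5.31. The median of the chromatin-modifying enzymes was lowest in T19, at 0.71 against 1.3 to 1.54.

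The polysome against total fold differed from that of the batch 2 small (ER) tumours, by an interaction test in edgeR, in 722 genes that were higher and 1038 that were lower in batch 1, 13.1% of 13395 genes tested in all. Only 33 named genes were examined here, those of the fixed panel and those named for this difference, and 16 passed. Genes named for this difference were taken from those past the threshold, so their passing was fixed by that choice. The 16 can therefore not be set beside the 13.1% of all genes. Of the panel, Spp1, Csf1r, Arg1 and Eif4e passed. Tgfb1 (5.82), Kcna3 (5.06), Leng8 (5.00), Sf3a2 (4.84), Mlxipl (4.75), Klhl17 (4.75), Spp1 (2.70) and Csf1r (1.80) were higher in batch 1. Rpl39 (−7.07), Rpl9 (−5.71), Uba6 (−5.69), Rpl3 (−5.51), Manea (−5.50), Rpl22l1 (−5.45), Arg1 (−3.12) and Eif4e (−1.76) were lower. Zfp36l1 (4.71) and Zfp36 (4.17), from outside that set, were higher in batch 1 as well. All of these but Spp1, Csf1r, Arg1, Eif4e, Zfp36 and Zfp36l1 were named for the size of this difference, so their values are a description. Batch and tumour title cannot be told apart here.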

How the results depend on the processing

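The counts of genes higher and lower in polysomes stayed within 1.5 times the main counts under every alternative run, with 4551 to 6776 genes called in all. Leaving out each tumour in turn gave 5109 to 6066 calls, 2336 to 2713 higher and 2773 to 3353 lower. Without the replicate block 5561 genes were called, 2737 higher and 2824 lower. Under all alternatives 3350 recomputed values of the named genes either kept direction and call or were uncalled in both fits, whatever their sign. The call was lost in 47 and gained in 15. A reversal was counted only where the main or the alternative fit called the gene, which held for 6 values.

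The reversals came with the GC and length trend removed: Fn1 (−1.68), Spp1 (1.28), B2m (0.21), Il1b (1.31), Ctss (1.43) and Srebf2 (−0.090), and the medians of alternative activation genes (0.10, and 0.083 at a mean of at least 10 CPM), chemokines (0.64), chromatin-modifying enzymes (−0.22) and splicing factors (0.037). A reversal here is a change of sign, and with the trend removed the median of all genes was −0.33. The cause was not tested.

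The difference from the ER tumours moved most. DESeq2 called 2808 genes (1282 higher), and the GC and length trend removed left 1070 (436 higher, 634 lower). Without the replicate block 1178 were called, 510 higher and 668 lower. Leaving out 1 tumour gave 726 to 2051 calls, 311 to 850 higher and 415 to 1201 lower. The count without ER1 was 726 and without ER2 it was 922. Against the large tumours of batch 1 DESeq2 called 7 genes (1 higher, 6 lower), no filter on low counts 5 (2 higher, Acta1 and Gm20594, and 3 lower, B4gat1, Fignl1 and Ptgr1, named after their values were seen), and leaving out 1 tumour gave 0 to 1 call, 0 to 1 higher and 0 to 0 lower, with 1 call without T4 (Taf12) and 1 without T22 (Dcn). Depth limits genes near 0 in polysome libraries, whose fold depends on the prior count.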
